A study of Mus musculus with 14 samples.

Results

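The genes described here encode neuronal microtubule-associated proteins other than tau: Map1a, Map1b, Map2, Map4, Map6, the stathmins Stmn1, Stmn2, Stmn3 and Stmn4, and Dcx. They were chosen by symbol in the deposited gene table, and all 10 were found among the 55422 entries of the count table. RNA was sequenced from the brainstem of TH-Cre;Slc6a2-eGFP/Rpl10a mice on a C57Bl/6 background, in which the regulatory sequence of the noradrenaline transporter gene Slc6a2 drives a ribosomal protein, Rpl10a, fused to eGFP. Every animal, controls included, carried both transgenes and received, at 2 to 3 months of age, a stereotaxic infusion into the locus coeruleus, the main noradrenergic nucleus of the brainstem. The infusion was P364S mutant human tau in animals B, C, L and M and EYFP in animals H, I and K. Animals B, L and I were labelled male and C, M, H and K female. Each animal gave a pre-IP library from total brainstem homogenate and an IP library from material precipitated to enrich locus coeruleus mRNA, so the groups held 4 tau IP, 3 EYFP IP, 4 tau pre-IP and 3 EYFP pre-IP libraries. The interval from infusion to collection, and whether expression of the infused constructs depended on Cre, are not given in the sources used here.

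Microtubules are the tracks on which neurons move cargo along axons and dendrites, and associated proteins set how stable, bundled and dynamic they are. Tau, encoded by Mapt, binds and stabilises axonal microtubules, and Map2 does so in dendrites and cell bodies. Map4 is the related protein found widely, also outside neurons. Map1a and Map1b are large lattice-binding proteins, the first prominent in mature neurons and the second in growing axons. Map6 protects microtubules from disassembly in the cold. Doublecortin, the product of Dcx, stabilises microtubules in migrating and immature neurons. Stathmins work the other way: they bind free tubulin dimers and promote disassembly, Stmn2 with known roles in axon growth and maintenance.

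The 4 stathmin genes are close relatives, which bears on how short reads were assigned to them. In the coding sequence of GENCODE M21 (GRCm38), a stretch of 60 bases from each shows how far they differ, printed 5′ to 3′ with every base that differs from Stmn1 in capitals.
Stmn1: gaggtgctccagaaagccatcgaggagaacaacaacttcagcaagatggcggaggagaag
Stmn2: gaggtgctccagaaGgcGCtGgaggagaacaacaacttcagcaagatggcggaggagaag
Stmn3: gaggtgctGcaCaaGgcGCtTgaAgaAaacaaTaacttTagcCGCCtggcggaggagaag
Stmn4: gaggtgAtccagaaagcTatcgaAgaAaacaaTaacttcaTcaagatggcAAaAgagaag
The Stmn1 stretch lies on the plus strand in exon 3 at chr4:134472858-134472917 and spans coding bases 241 to 300 of 447. The Stmn2 stretch, at chr3:8554846-8554905 on the plus strand in exon 4, matched it at 56 of 60 positions, or 93.3%. The Stmn3 stretch, at chr2:181307294-181307353 on the minus strand in exon 4, matched at 46 of 60 positions, and the Stmn4 stretch, at chr14:66357900-66357959 on the plus strand in exon 6, at 51 of 60. The longest run of identical bases between annotated transcripts was 43 for Stmn1 and Stmn2, and 16 to 21 for the other 5 stathmin pairs. It was 26 for Map1a and Map1b and 15 for Map2 and Map4. How reads matching several places were counted is not given in the sources used here. Of the pairs compared, Stmn1 and Stmn2 shared the longest run, and its effect on the split of reads between them was not tested. Exons of Map1a overlap those of Ppip5k1 on the opposite strand over 272 bases, 2.2% of its exon length, and exons of Map2 overlap the antisense gene Gm10558 over 124 bases, 0.8%. Since no use of strand is stated, reads from these shared bases cannot be told apart. Stmn1 shares 66 bases, 3.4% of its exon length, with the miRNA gene Gm23634 on the same strand.

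Libraries held 41843489 to 65664551 counted reads, 76.4 to 85.3% of the raw reads. Levels are given below as CPM, counts scaled to a library total of 1000000. The infused tau construct had 67.82 to 839.6 CPM in the tau libraries and 0.0401 to 7.442 CPM in the EYFP libraries, the upper end from the libraries of animal K, with 398 counts in IP and 408 in pre-IP. Some libraries stood apart. The EYFP IP library of animal I had an RNA integrity number of 4.2 against a median of 8.1 over all libraries. Animal M, labelled female, had 1153 counts of Y-linked genes in IP and 674 in pre-IP. The tau IP library of M had the lowest level of noradrenergic markers in its group. The summed level of 12 noradrenergic markers was 7168 CPM in the tau IP library of B, 4113 in C, 3538 in L and 1070 in M. It was 564 to 642 CPM in EYFP IP and 409 to 481 CPM in pre-IP, so by this sum the EYFP IP libraries stood little above their homogenates. Dbh, which encodes the enzyme that makes noradrenaline, had 128 to 1292 CPM in tau IP, 29.2 to 56.1 CPM in EYFP IP and 8.31 to 26.5 CPM in pre-IP. Its log2 ratio of IP over the same animal's pre-IP was 1.58, 1.79 and 1.08 in H, I and K. It was 6.88, 6.77, 5.76 and 3.08 in B, C, L and M. In bulk RNA of this kind, fewer cells of a type and less RNA per cell cannot be told apart.

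Set per kilobase of exon, the stathmins stood above the other genes in every group. In EYFP pre-IP the order was Stmn3 with a mean of 1206 CPM per kilobase, Stmn1 with 383, Stmn4 with 196 and Stmn2 with 97.7. Below them came Map4 with 47.6, Map1a with 18.3, Map1b with 18.1, Map6 with 17, Map2 with 5.74 and Dcx with 0.212 CPM per kilobase. The libraries of Map1a, Map1b and Map6 overlapped in that group, so their order is not resolved, and the other neighbours in the order did not overlap. Tau pre-IP gave the same order. In EYFP IP Map1b, at 31.5 ± 4.60 CPM per kilobase (SD, n = 3), ranked beside Map4 at 30.4 ± 5.33, with overlapping libraries. In tau IP Map4, at 46.2 CPM per kilobase, stood above every library of Map1b, whose mean was 21, while Stmn4 and Stmn2 overlapped at means of 202 and 178. Dcx was the lowest of the 10, with 70 to 340 counts per library. Mapt, for reference, had 36.0 to 47.6 CPM per kilobase as group means, against 30.4 to 47.6 for Map4.

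**Figure D1:**
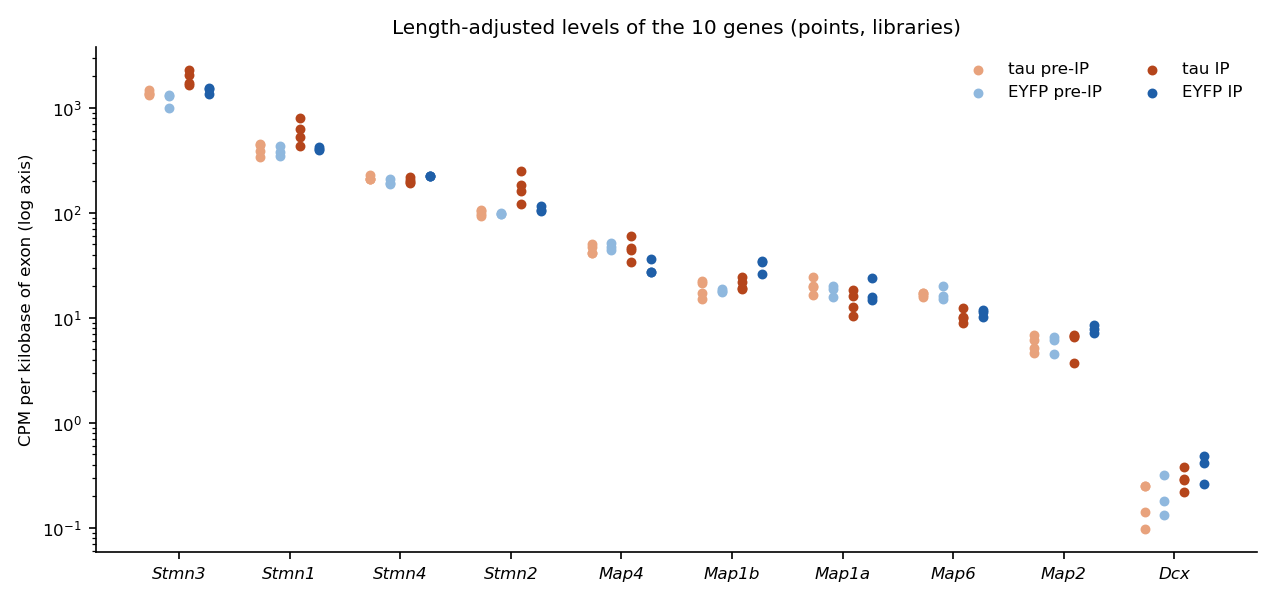
Levels of the 10 genes in CPM per kilobase of exon on a log axis, one point per library, coloured by group. The 4 stathmin genes occupy the upper end and Dcx, at 0.184 to 0.384 CPM per kilobase as group means, the lower end in all 4 groups.

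The first comparison asks what the precipitation enriched: all 7 IP against all 7 pre-IP libraries, with treatment as a term. Of the 10 genes, 5 were higher in IP (Dcx, Stmn2, Map1b, Stmn3 and Stmn1) and 1 was lower (Map6) at an adjusted p under 0.05. Over all genes tested the call rate was 29.9%, 5819 of 19472, and the median log2 fold change was 0, against 0.35 over the 10. Map1a, Map2, Map4 and Stmn4 did not pass.

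Among the stathmins, Stmn2 had 1393 CPM in the tau IP library of B, 1020 in C, 898 in L and 680 in M, and 579, 598 and 653 CPM in EYFP IP of H, I and K. In pre-IP it had 601, 584, 526 and 540 CPM in B, C, L and M and 541, 545 and 556 CPM in H, I and K. The tau IP libraries of B, C and L were well above every pre-IP library, while those of M, H, I and K lay closer to their own homogenates. The fitted log2 fold change was 0.60 ± 0.18 (SE; edgeR quasi-likelihood test, adjusted p = 0.0167). Stmn3, a neuronal stathmin held on membranes, had 2602, 2333, 1888 and 1962 CPM in tau IP and 1710, 1551 and 1747 in EYFP IP. Its pre-IP levels were 1675, 1534, 1518 and 1577 CPM in tau animals and 1129, 1474 and 1505 in EYFP animals. Its log2 fold change was 0.45 ± 0.12 (SE; edgeR, adjusted p = 0.0124). Stmn1, the founding member of the family, had 1542, 1216, 1008 and 836 CPM in tau IP, 775, 818 and 767 in EYFP IP, 860, 851, 739 and 660 in tau pre-IP and 721, 825 and 663 in EYFP pre-IP. It rose by 0.42 ± 0.16 on the log2 scale (SE; adjusted p = 0.05 after rounding by edgeR) and was the last gene to pass, ranked 5819 by p. Stmn4 had 363 to 435 CPM in every library, with a log2 fold change of 0.09 ± 0.08 (SE, 95% interval -0.07 to 0.24). These are paired libraries of 7 animals, and Stmn2 and Stmn3 were higher in IP than in the same animal's pre-IP in 7 of 7. The same held for 10.5% of all genes tested. The calls of the stathmins changed as single animals were left out. Log2 fold changes then ran from 0.42 to 0.65 for Stmn2, 0.36 to 0.48 for Stmn3 and 0.28 to 0.48 for Stmn1. Without C, where 4223 genes were called in all, adjusted p by edgeR was 0.0706 for Stmn2 and 0.0643 for Stmn3. Without L it was 0.058 for Stmn2. For Stmn1 it was 0.0764 without B, 0.149 without C, 0.075 without H, 0.0709 without K, 0.116 without L and 0.0649 without M, and 0.0501 with the size factors of DESeq2.

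Map1b had 535, 546 and 415 CPM in EYFP IP of H, I and K against 281, 281 and 298 in their pre-IP. In tau IP of B, C, L and M it had 295, 390, 347 and 301 CPM against 270, 353, 239 and 336 in pre-IP. Every EYFP IP library stood above every tau IP and pre-IP library, and the tau IP libraries overlapped with pre-IP. The fitted rise was 0.47 ± 0.13 (SE, log2; edgeR, adjusted p = 0.0117), and adjusted p was 0.0628 without H and 0.0666 without I. Its relative Map1a did not pass, with 128 to 290 CPM in IP and 194 to 294 in pre-IP and a log2 fold change of -0.24 ± 0.14 (SE, 95% interval -0.53 to 0.04). Without H, Map1a passed as lower, at -0.40 and an adjusted p of 0.0481. Map2 had 61.5 CPM in tau IP of B and 108 to 141 in the other IP libraries, against 74.6 to 112 in pre-IP. Its log2 fold change was 0.27 ± 0.13 (SE, adjusted p = 0.126 by edgeR), and without B it was 0.38 with an adjusted p of 0.0204. Map4 ran from 411 to 914 CPM in IP, against 624 to 781 CPM in pre-IP. Its log2 fold change was -0.20 ± 0.17 (SE, adjusted p = 0.418 by edgeR), and -0.38 with an adjusted p of 0.0334 without B.

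Map6 was the member that fell. It had 113, 82.3, 93.2 and 91.3 CPM in tau IP and 92.7, 104 and 108 in EYFP IP, against 145, 157, 157 and 151 in tau pre-IP and 146, 137 and 183 in EYFP pre-IP. No IP library reached any pre-IP library. The log2 fold change was -0.60 ± 0.11 (SE; edgeR, adjusted p = 0.00105), and adjusted p ran from 0.000153 to 0.00581 as each animal was left out in turn. Of all genes tested, 5.58% were lower in IP with no overlap between the fractions and 3.57% were higher, and Map6 was the 1 member of 10 in either class. It was lower in IP in 7 of 7 animals, as were 16% of all genes. Dcx had 2.74, 3.72, 3.59 and 4.78 CPM in tau IP, 5.18, 6.11 and 3.29 in EYFP IP, 3.16, 3.15, 1.22 and 1.77 in tau pre-IP and 4.06, 2.29 and 1.68 in EYFP pre-IP. The fractions overlapped, and animal B had less in IP than in pre-IP. Its fitted rise, 0.80 ± 0.25 (SE, log2; edgeR, adjusted p = 0.021), was the largest of the 10, and adjusted p was 0.0861 without I, 0.0548 without L and 0.0771 without M. The 8 other markers of immature neurons summed to 106 to 118 CPM in IP and 94.4 to 128 CPM in pre-IP, and 4 of the 8 had a higher mean in IP.

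**Figure D2:**
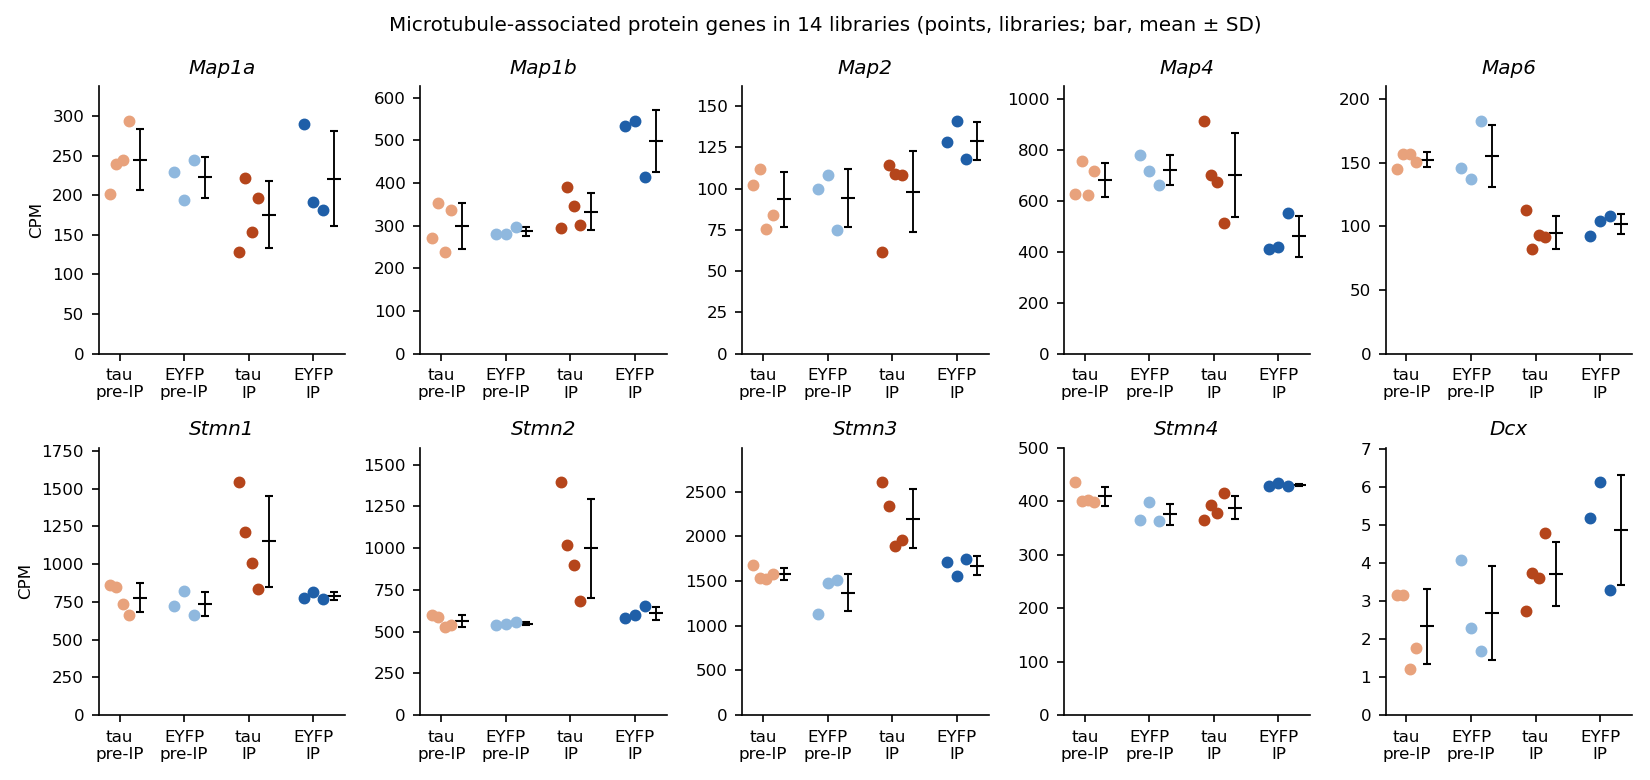
CPM of each gene in the 14 libraries by treatment and fraction; each point is a library, and the bar beside each group is the mean and SD. Map6 shows the gap between the fractions (82.3 to 113 CPM in IP, 137 to 183 CPM in pre-IP), and Stmn2 shows the tau IP libraries spread from 680 to 1393 CPM.

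RefSeq promoter windows (GRCm38.p6) were at hand for 6 of the 10 genes: Map1a, Map1b, Map2, Map4, Stmn3 and Dcx. The 250 bases upstream of the RefSeq start are printed for the 3 of them that rose in IP, to show how unlike these starts are. Capitals mark matches on either strand to the letters GGGCGG, known as the GC box, to the letters CCAAT, and to TATAAA, known as the TATA box, and none of these matches overlapped another motif.
Map1b: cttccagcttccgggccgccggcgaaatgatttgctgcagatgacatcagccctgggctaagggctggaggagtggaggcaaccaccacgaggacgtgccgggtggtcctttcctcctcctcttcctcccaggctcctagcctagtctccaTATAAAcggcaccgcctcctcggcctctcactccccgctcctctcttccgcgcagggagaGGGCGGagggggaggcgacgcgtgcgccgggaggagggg
Stmn3: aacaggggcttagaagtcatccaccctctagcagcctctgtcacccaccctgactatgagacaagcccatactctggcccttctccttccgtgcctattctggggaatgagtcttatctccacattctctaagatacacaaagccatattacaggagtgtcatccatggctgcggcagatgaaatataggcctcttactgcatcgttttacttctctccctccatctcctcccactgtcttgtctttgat
Dcx: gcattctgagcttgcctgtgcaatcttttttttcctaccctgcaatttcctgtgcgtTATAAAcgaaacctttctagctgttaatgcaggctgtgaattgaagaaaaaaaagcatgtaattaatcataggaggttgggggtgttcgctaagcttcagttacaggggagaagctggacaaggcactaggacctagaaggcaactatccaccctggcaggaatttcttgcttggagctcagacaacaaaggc
The Map1b window is chr13:99516603-99516852 on the minus strand, with 66.4% GC, 1 GC box and 1 TATA box match. The Stmn3 window is chr2:181314501-181314750 on the minus strand, with 48.8% GC and none of the 3 sets of letters. The Dcx window, 1 of 2 in the table, is chrX:143933125-143933374 on the minus strand, with 44.8% GC and 1 TATA box match. The Dcx gene as counted reaches to chrX:143933311, so this window lies partly inside it. The other Dcx window, chrX:143933220-143933469, held 1 CCAAT and 1 TATA box match. Over 32851 such windows the median GC content was 52.4%, and 32.7% held a GC box, 33.8% a CCAAT and 12.4% a TATA box match. Of the members that did not pass, the Map1a window held 4 GC boxes, the Map2 window 5, and the 2 windows of Map4 held 3 and 0. A match of letters is a description and no evidence of a bound factor.

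Cell type markers differed between the fractions as well. The 12 noradrenergic markers were all higher in IP on average, with a summed level 5.86 times that of pre-IP. General neuronal markers summed to 1.21 times and markers of other neuron types to 0.895 times the pre-IP level. Of these, 7 of 10 and 5 of 11 were higher in IP on average. The treatments differed. Markers of other neuron types averaged 541 CPM in IP and 743 in pre-IP with tau, and 850 and 766 CPM with EYFP. The noradrenergic sums averaged 3972 and 428 CPM with tau, and 593 and 435 CPM with EYFP. Oligodendrocyte markers summed to 3842 to 13546 CPM in IP and 10211 to 13596 CPM in pre-IP, and 4 of 10 were higher in IP on average. Their sums averaged 6982 CPM in IP and 11588 in pre-IP with tau, and 10826 and 11449 CPM with EYFP. No marker of the glial lists was at 0 in every IP library, and the part of these differences in the changes of the 10 genes was not tested.

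The second comparison, named in the study's design, sets the 4 tau IP against the 3 EYFP IP libraries. With edgeR 0 of 19472 genes passed an adjusted p of 0.05 (0%), the smallest being 0.318, so 0 of the 10 did. At an unadjusted p under 0.05 there were 2336 genes (12%) and 5 of the 10, which became 3 without H (Map4 and Stmn1 lost) and 3 without I (Map4 and Stmn3 lost). DESeq2's Wald test called 411 genes, of which 2 were members, Stmn2 (log2 fold change 0.87, adjusted p = 0.036) and Map4 (0.76, adjusted p = 0.0485). Without animal M, edgeR called 128 genes and 0 members.

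The 5 members with an unadjusted p under 0.05 were Stmn1, Stmn2, Stmn3 and Map4, with higher values in tau IP, and Map1b, with lower values. The tau IP levels of Stmn2 given above, 680 to 1393 CPM, all exceeded those in EYFP IP, 579 to 653 CPM, a fitted difference of 0.84 ± 0.26 on the log2 scale (SE; adjusted p = 0.318 by edgeR). For Stmn1 the groups were 836 to 1542 and 767 to 818 CPM, and the fitted difference was 0.67 ± 0.23 on the log2 scale (SE; adjusted p = 0.325 by edgeR). For Stmn3 they were 1888 to 2602 and 1551 to 1747 CPM, with 0.51 ± 0.18 (SE; edgeR, adjusted p = 0.325). Stmn4, the last of the family, did not share these higher values in tau IP. It had 365, 393, 378 and 416 CPM in tau IP and 429, 433 and 429 CPM in EYFP IP. Its fitted log2 fold change was -0.04 ± 0.13 (SE, 95% interval -0.29 to 0.20). With libraries scaled by their totals alone it was -0.15, where the median over all genes was -0.18. Map4 had 914, 701, 674 and 512 CPM in tau IP and 411, 417 and 553 in EYFP IP. Only the library of M fell below that of K, and the fitted difference was 0.72 ± 0.24 on the log2 scale (SE; adjusted p = 0.319 by edgeR). Map1b, at 295 to 390 CPM in tau IP and 415 to 546 in EYFP IP, had a fitted difference of -0.47 ± 0.15 on the log2 scale (SE; adjusted p = 0.318 by edgeR). Map2 had 61.5 to 114 CPM against 118 to 141 CPM, also without overlap, and a fitted difference of -0.30 ± 0.19 on the log2 scale (SE; adjusted p = 0.549 by edgeR). Map1a, Map6 and Dcx overlapped between treatments, with log2 fold changes of -0.23 ± 0.21, 0.02 ± 0.18 and -0.28 ± 0.30 (SE).

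In CPM, 3 of the 10 genes were higher in tau IP with no overlap (Stmn1, Stmn2 and Stmn3), as were 6.36% of all genes, and 3 were lower with no overlap (Map1b, Map2 and Stmn4), as were 9.22% of all genes. The median log2 fold change was -0.01 over the 10 and -0.08 over all genes, and -0.18 over all genes when libraries were scaled by their totals alone. The 12 noradrenergic markers all had a higher mean in tau IP, with a summed level 6.69 times that of EYFP IP. The summed level was 0.645 times for oligodendrocyte markers, 0.747 times for astrocyte markers and 0.637 times for markers of other neuron types, at 344 to 623 CPM against 836 to 859 CPM. None of these lists had a marker at 0 in every IP library. Within tau IP, the libraries stood in the order B, C, L, M for Stmn1, Stmn2, Map4 and the noradrenergic sum alike. Stmn3, with M above L, did not follow it, nor did Map1a, Map1b, Map2, Map6, Stmn4 and Dcx. The share of all genes in this order was not counted, so no link to the markers is drawn from it. Oligodendrocyte markers, at 3842, 6366, 7049 and 10671 CPM, and vascular markers stood in the reverse order. Stmn1 had the order B, C, L, M in pre-IP too, at 860, 851, 739 and 660 CPM. The noradrenergic sum did not, at 432, 422, 417 and 442 CPM. The deposited RNA concentration was 0.1, 0.8, 0.2 and 0.5 ng per microlitre in tau IP of B, C, L and M. It was 2.8, 1.6 and 0.7 in EYFP IP of H, I and K, so the treatments overlapped, with C above K. The part of these marker and RNA differences in the values of the 10 genes was not tested. Leaving out the IP library of low RNA integrity (I) gave log2 fold changes of 0.80 for Stmn2, 0.64 for Map4 and -0.42 for Map1b. Without B, the library of the most noradrenergic markers, the log2 fold changes were 0.57 for Stmn2, 0.44 for Stmn1, 0.51 for Map4 and -0.46 for Map1b. Without K, whose libraries held construct reads, those of Stmn2, Map4 and Map1b were 0.88, 0.88 and -0.60, and without M they were 0.99, 0.86 and -0.42. With the range of library numbers in the labels as a covariate (B, C, H and I in the lower range, L, M and K in the upper), they were 0.84, 0.72 and -0.43, and 0 members passed.

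**Figure D3:**
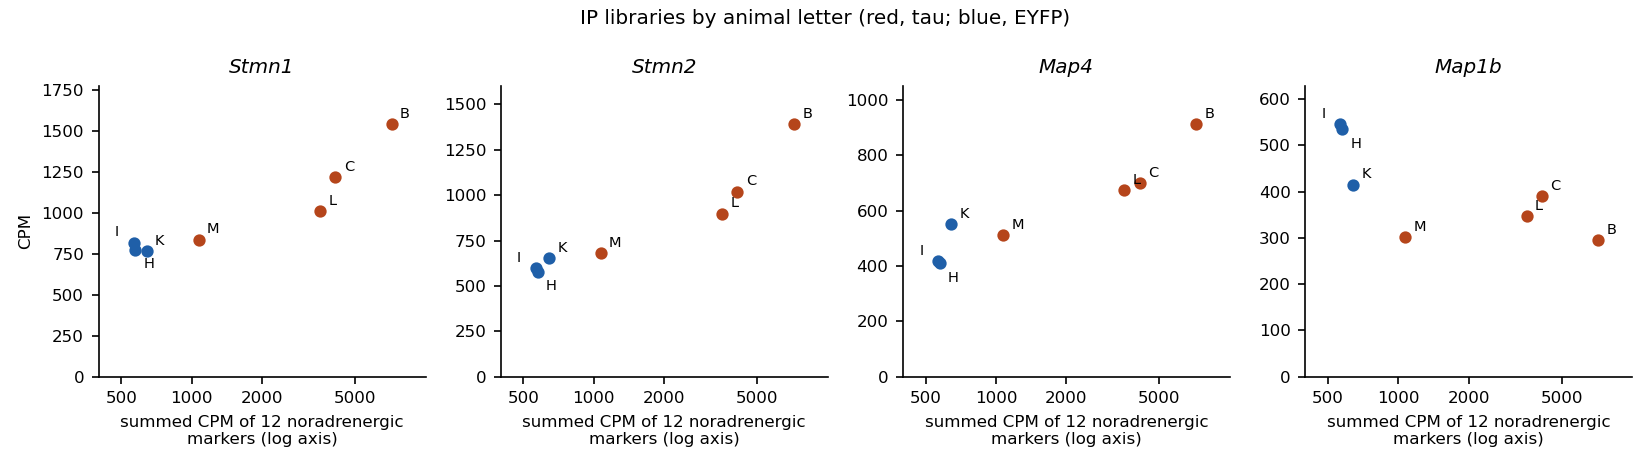
CPM of Stmn1, Stmn2, Map4 and Map1b in the 7 IP libraries against the summed CPM of 12 noradrenergic markers on a log axis, each point an animal named by its letter (red, tau; blue, EYFP). The EYFP libraries lie together at 564 to 642 CPM of markers, and among the tau libraries B, at 7168 CPM, has the most Stmn1, Stmn2 and Map4. The other members, which did not follow the order of the markers in tau IP, are not drawn.

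The same contrast in total homogenate served as background. Between tau and EYFP pre-IP, 0 of 19197 genes passed with edgeR (0%) and 0 with DESeq2, with 545 genes (2.84%) and 0 of the 10 at an unadjusted p under 0.05. The 10 log2 fold changes lay between -0.17 for Dcx and 0.21 for Stmn3, with a median of 0.07. For Stmn2 it was 0.05 ± 0.12 (SE, 95% interval -0.17 to 0.28) and for Map4 -0.06 ± 0.12 (SE, 95% interval -0.30 to 0.18). For Map1b it was 0.08 ± 0.15 (SE, 95% interval -0.22 to 0.37). Map1a had 0.16 ± 0.16, Stmn1 0.09 ± 0.13 and Stmn4 0.14 ± 0.12 (SE, log2). Map2 and Map6 were near 0, at 0 ± 0.16 and -0.02 ± 0.14 (SE, log2), and their sign changed with the scaling, the tool or the animals used. Stmn3 and Stmn4 had pre-IP libraries that did not overlap, higher with tau at 1518 to 1675 against 1129 to 1505 CPM and 399 to 435 against 363 to 398 CPM. Of all genes, 1.33% were higher and 1.78% lower without overlap.

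**Figure D4:**
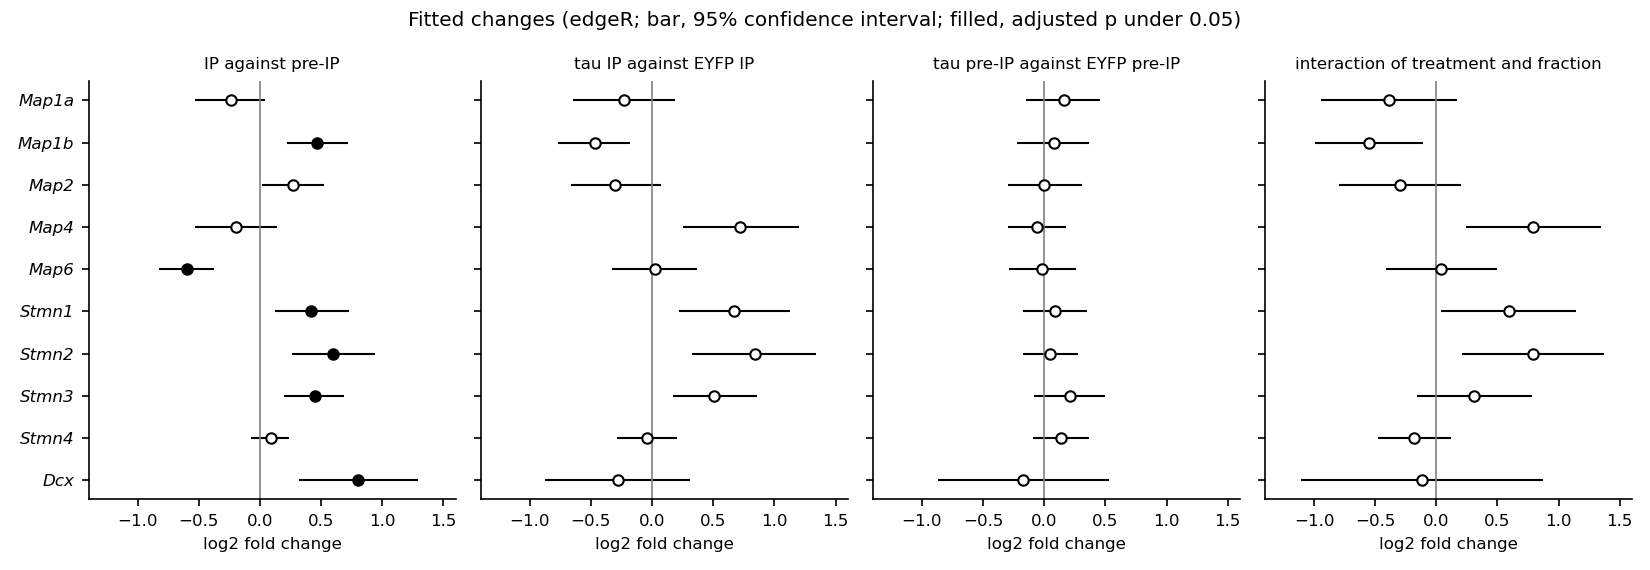
Fitted log2 fold changes of the 10 genes in the 4 comparisons by edgeR, each with an approximate 95% interval (normal quantile times the SE). A filled point has an adjusted p under 0.05. The 6 filled points are all in IP against pre-IP, and the intervals in tau against EYFP pre-IP all include 0.

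Whether IP stood to pre-IP differently in the treatments was tested by an interaction term over all 14 libraries, without a block for the animals they share. With edgeR 0 of 20495 genes passed (0%), including 0 of the 10, while 1223 genes and 3 of the 10 had an unadjusted p under 0.05, and DESeq2 called 52 genes and 0 members. The 3 were Map4 with an interaction of 0.79 ± 0.28 (SE, log2; edgeR, adjusted p = 0.725), Stmn2 with 0.79 ± 0.30 (adjusted p = 0.761) and Map1b with -0.55 ± 0.23 (adjusted p = 0.816). The 95% intervals were 0.24 to 1.35, 0.21 to 1.37 and -0.99 to -0.11. As each animal was left out, the interaction ran from 0.50 to 0.95 for Map4, 0.51 to 0.90 for Stmn2 and -0.75 to -0.45 for Map1b. Without B it was 0.50 for Map4 and 0.51 for Stmn2. The 3 members at an unadjusted p under 0.05 became 1 without H (Stmn2) and 0 without I, fits that hold fewer EYFP animals. Of the others, the interaction was 0.59 ± 0.28 (SE, log2) for Stmn1, 0.31 ± 0.24 for Stmn3 and -0.18 ± 0.15 for Stmn4. It was -0.39 ± 0.28 (SE, log2) for Map1a, -0.30 ± 0.26 for Map2, 0.04 ± 0.23 for Map6 and -0.12 ± 0.51 for Dcx, and the sign for Map6 and Dcx turned as animals were left out.

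Per animal, the log2 ratio of IP over pre-IP for Stmn2 was 1.21 in B, 0.80 in C, 0.77 in L and 0.33 in M with tau, and 0.10 in H, 0.13 in I and 0.23 in K with EYFP. For Stmn1 it was 0.84, 0.51, 0.45 and 0.34 with tau and 0.10, -0.01 and 0.21 with EYFP. For Stmn4 it was -0.25, -0.03, -0.09 and 0.06 with tau and 0.23, 0.12 and 0.24 with EYFP. In these 3 genes the animals of the treatments did not overlap, with Stmn1 and Stmn2 higher and Stmn4 lower with tau. These ratios use unscaled library totals, under which the median interaction over all genes was -0.14 on the log2 scale. Over all genes tested, the tau animals were higher without overlap in 3.87% and lower in 8.29%, against 2 and 1 of the 10. Map1b had 0.12, 0.14, 0.54 and -0.16 with tau and 0.93, 0.96 and 0.48 with EYFP, and L stood above K. Map4 had 0.54, -0.11, 0.11 and -0.49 with tau and -0.93, -0.79 and -0.26 with EYFP, and M stood below K. Map6 ran from -0.93 to -0.36 with tau and from -0.76 to -0.40 with EYFP, much the same range. Dcx ranged from -0.20 to 1.53 with tau and from 0.35 to 1.40 with EYFP.

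Fitted within a treatment, different members passed. In the EYFP animals alone, where 6.38% of 19105 genes were called, Map1b rose in IP (0.79 ± 0.16, SE, log2; edgeR, adjusted p = 0.0181) and Map4 fell (-0.65 ± 0.16, adjusted p = 0.0412). In the tau animals alone, where 20.7% of 18949 genes were called, Stmn2 (0.91 ± 0.22, SE, log2; edgeR, adjusted p = 0.0179), Stmn3 (0.55 ± 0.15, adjusted p = 0.0278) and Stmn1 (0.65 ± 0.21, adjusted p = 0.0488) rose and Map6 fell (-0.61 ± 0.15, adjusted p = 0.0177). Map6 had -0.63 ± 0.17 in the EYFP animals, with an adjusted p of 0.0543 by edgeR. Map4 in the tau animals had 0.12 ± 0.20, the opposite sign to the EYFP animals. These separate calls do not show a difference between treatments, since the interaction passed for 0 of the 10.

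**Figure D5:**
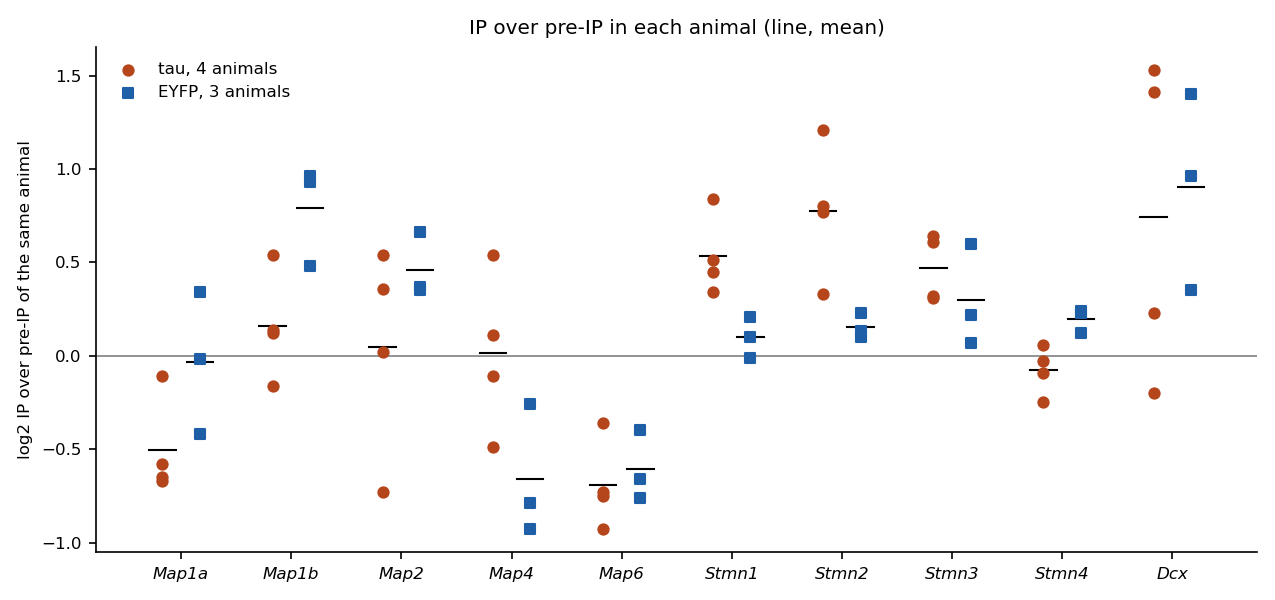
Log2 of IP over pre-IP CPM in each of the 7 animals, circles for tau and squares for EYFP, with the mean of each treatment as a line. Map6 lies below 0 in 7 of 7 animals and Stmn2 above 0 in 7 of 7, with the 4 tau animals (0.33 to 1.21) above the 3 EYFP animals (0.10 to 0.23).

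Mapt itself, counted as the mouse gene, had 254 to 434 CPM in tau IP and 340 to 371 in EYFP IP, and did not pass in any comparison: its log2 fold change was 0.23 ± 0.12 (SE) for IP against pre-IP and -0.05 ± 0.17 (SE) for tau against EYFP IP.

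The wider set of microtubule regulators was read from a list of 61 genes outside the 10. For IP against pre-IP, 60 were tested: 12 rose and 21 fell, 55% in all against 29.9% of all genes, with a median log2 fold change of -0.12. Those with the largest rises were Map9, a spindle-associated protein (1.33 ± 0.18, SE, log2; edgeR, adjusted p = 0.000111), Tppp3, a tubulin polymerisation-promoting protein (1.05 ± 0.29, adjusted p = 0.0118), Pafah1b1, the dynein regulator LIS1 (0.89 ± 0.16, adjusted p = 0.000684), and Mark3, a kinase of microtubule-associated proteins (0.73 ± 0.26, adjusted p = 0.0415). The largest falls were in Map6d1, a relative of Map6 (-1.24 ± 0.17, SE, log2; edgeR, adjusted p = 0.000104), Numa1, a spindle pole protein (-1.03 ± 0.14, adjusted p = 9.48e-05), Camsap3, which binds microtubule minus ends (-0.80 ± 0.14, adjusted p = 0.000543), and Hdac6, the tubulin deacetylase (-0.69 ± 0.12, adjusted p = 0.000501). Map6d1 had 37.5 to 96.0 CPM in tau IP and 78.6 to 102 in EYFP IP against 146 to 203 in pre-IP, so both Map6 and its relative were lower in every IP library than in any pre-IP library.

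Between tau and EYFP IP, 0 of 59 regulators passed with edgeR. An unadjusted p under 0.05 was found for 6 of the 59, against 12% of all genes. The median log2 fold change was -0.12, against -0.08 over all genes. The smallest p-values were those of Tppp3 (1.56 ± 0.40, SE, log2; edgeR, adjusted p = 0.318) and Svbp, a partner of the vasohibins (0.50 ± 0.17), with higher values in tau IP, and of Dclk2, a relative of Dcx (-0.54 ± 0.17), and Clasp1, a plus-end protein (-0.46 ± 0.16), with lower ones. Tppp3 had 545 to 1810 CPM in tau IP and 339 to 445 in EYFP IP. In pre-IP 0 of 60 passed, with 2 at an unadjusted p under 0.05, against 2.84% of all genes. Those of smallest p were Tbcb (0.19 ± 0.13, SE, log2) and Dpysl2 (0.16 ± 0.12) with higher values in tau, and Spast (-0.48 ± 0.19) and Nav2 (-0.43 ± 0.19) with lower ones. The interaction passed for 0 of 60. An unadjusted p under 0.05 was found for 1, Tppp3 (1.41 ± 0.46, SE, log2), against 5.97% of all genes. The next in each direction were Spast (0.52 ± 0.28), Hdac6 (-0.42 ± 0.22) and Tacc1 (-0.27 ± 0.17).

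Over the 14 libraries, which share animals and span both fractions, the log2 CPM of Stmn1 and Stmn2 had a Pearson r of 0.95, and Stmn3 had 0.83 with Stmn1 and 0.88 with Stmn2. Stmn4 stood apart from them, with r of -0.24, -0.34 and -0.01. The most negative values were those of Map4 with Stmn4 (r = -0.75), Map1a with Stmn1 and with Stmn2 (-0.72 each) and Map6 with Dcx (-0.71). Apart from pairs of stathmins, the highest was that of Map2 with Dcx (0.75). Among 15220 genes with a mean of at least 50 counts, the most alike to Stmn1 were Dynll1 (r = 0.986) and Caly (0.98), to Stmn2 6330403K07Rik (0.985) and Tspan6 (0.983), and to Stmn3 Park7 (0.986) and Gm4045 (0.978). For Map1a they were Pcyt2 (0.916) and Kif1a (0.915), for Map1b Septin6 (0.944) and Cpsf2 (0.934), and for Map2 Ntm (0.97) and Mbnl2 (0.956). For Map4 they were Mmachc (0.932) and Smim14 (0.929), for Map6 Lasp1 (0.944) and Kif3c (0.943), and for Dcx Mapk8 (0.963) and Zfp60 (0.948). Stmn4, which varied least, had Ift27 (0.858) and mt-Tp (0.855). These are descriptions of 14 libraries in which the fractions and treatments differ.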

How the data were processed

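RNA from brainstem homogenate (pre-IP) and precipitate (IP) of 7 animals was purified on columns and made into libraries of polyadenylated RNA with the SMART-Seq v4 and Nextera XT kits, per the labels' protocols. The authors deposited raw whole-number counts per gene, not normalized; the submitters' processing notes name FastQC, Trim Galore, STAR, featureCounts, GRCm38 and mm10, with no versions. The strand setting and the treatment of reads with several matches are not given in the sources used here. The deposited sample sheet holds raw reads per library, the RNA concentration and the RNA integrity number, per the file headers, and the deposited gene table holds the exon length per gene. In all libraries 60.8 to 63.9% of nonzero counts were even numbers, the cause of which was not tested. Symbols came from the deposited gene table, and of 3765 entries without one, 3669 were named from GENCODE M21.

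Counts were tested with edgeR 4.0.16 (R 4.3.3): filterByExpr, TMM scaling, the quasi-likelihood F test and Benjamini-Hochberg adjustment over all genes tested, with a threshold of 0.05. Each treatment contrast used the 7 libraries of a fraction; IP against pre-IP and the interaction used 14. Scripts were tested on simulated data. CPM are relative to unscaled library totals, and log2 ratios per animal used a prior count of 2. Fractions of an animal share its letter, and their deviations from the group means correlated at 0.22 to 0.55 in the 7 animals. The letter in the sample titles was read as the animal, so different letters were taken as separate animals. No pair of libraries of a group was alike within sampling noise (chi-square per degree of freedom at least 26.9 over 18 pairs). At these depths 3 counts equal 0.0457 to 0.0717 CPM, a limit of counting error only. All 10 members are named in every comparison. From the regulators, the 4 with the largest log2 fold change past the threshold per direction are named, or the 2 of smallest p where none passed; the 2 genes most alike each member, Dbh, Mapt and the marker sums are also given. The members and all lists were chosen with earlier results of these data known. Alternatives were DESeq2 1.42.0, limma 3.58.1 (voom with quality weights), other filters and scalings, covariates, an animal block and leaving out animals.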

Additional observations from a re-analysis of the deposited data

Results flagged for a closer look

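In groups of 4 libraries or animals, a value was singled out where its gap to the nearest other, as a share of the whole range, passed Dixon's 95% limit for 4 values, 0.829. Of 30 such groups of the 10 genes, 3 held one, and chance gives about 1 in 20. Map2, the dendritic microtubule stabiliser, had 61.5 CPM in the tau IP library of animal B, with 108 to 114 CPM in the other tau IP libraries. Stmn4 had 435 CPM in the tau pre-IP library of B, with 399 to 402 CPM in the other three. The log2 IP over pre-IP of Map1a was -0.11 in tau animal C, with -0.67 to -0.58 in the other tau animals. Animal B gives 2 of these 3 values, and its IP library also had the highest level of the 12 noradrenergic markers (7168 CPM) and the lowest of the markers of other neuron types (344 CPM). The part of these in the values was not tested.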

How the results depend on the processing

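Scaling by library totals alone was added after the data were seen. The number of genes called was 0 in tau against EYFP IP, and became 411 with DESeq2's Wald test (2 members), 113 with no filter on low counts, 202 with all 14 libraries in 1 fit and 0 to 128 as animals were left out, the highest without M. In pre-IP it was 44 with no filter and 0 to 1 with animals left out, and for the interaction it was 52 with DESeq2, 67 with no filter and 0 to 56, the highest without M. For IP against pre-IP, 1218 genes and 2 members were called in the EYFP animals alone. With animals left out there were 4223 to 5897 genes and 3 to 7 members, 3 without C or L. With the animal as a paired block 6044 genes were called, and the 6 members called were those called without it (Stmn1 adjusted p = 0.0314), so the block changed no call of a member. For the interaction the block called 0 members.

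Signs turned in values near 0. Map6 in tau against EYFP IP was -0.10 with library totals, -0.13 without B, -0.07 without H and -0.12 with voom, and -0.13 to 0.10 over all animals left out. Its interaction was -0.07 with library totals, -0.17 without B, -0.10 without K and -0.03 with the block, and -0.17 to 0.10 over all animals left out. In pre-IP, Map6 was 0.01 without B, 0.16 without K and 0.07 with voom. Map2 there was -0.01 with library totals, -0.04 without B, -0.08 without C, -0.11 without K and -0.02 with voom. Dcx in pre-IP was 0.20 without H and 0.04 without L (range -0.38 to 0.20), and its interaction was 0.11 without B, 0.03 without C and 0.12 without I (range -0.45 to 0.12). For IP against pre-IP in the tau animals alone, Map4 was 0.12 and Stmn4 -0.02. The cause was not tested for any of these. The mean log2 ratios per animal moved by less than 1 SD with a prior count of 0.5 and with TMM scaling. Dcx, at 70 to 340 counts per library, is the member that depth limits most.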
